A study of Mus musculus with 6 samples.

Results

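Interferon-stimulated genes are the genes that cells switch on when they sense interferon. The 40 genes described here were taken by symbol, by matching the mouse Ensembl identifiers of the count table to the GRCm38 annotation, whose gene coordinates are given below. All 40 were found, each as 1 row of the 47729 genes in the table, and all 40 passed the filter on low counts. They were measured by bulk RNA-seq of mouse bone marrow in 3 knockout libraries, from mice without the SNORD113-114 cluster (here cluster KO), and 3 wildtype libraries. The cluster encodes small nucleolar RNAs of the C/D class from an imprinted region. The study compares gene expression with and without it, with an interest in stem cell self-renewal and translation. Strain, age, sex and treatment of the mice, the cells that carry the deletion, and any sorting of the marrow are not stated by the sources at hand. Since nothing assigns libraries to separate animals, the p-values describe variation among libraries, some of which may be technical.

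Type I interferons bind the receptor chains Ifnar1 and Ifnar2, whose kinases signal to Stat2. Stat2 acts with Irf9 in a complex that binds the interferon-stimulated response element (ISRE) in promoters. Interferon gamma acts through Ifngr1 and Ifngr2 and on promoters that hold the gamma-activated sequence (GAS). In the marrow, interferon is known to drive quiescent stem cells into cycle and to change blood cell output, and many of these genes keep a resting level without infection.

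The libraries held 17663369 to 23459168 counts on genes, and a gene with 0 counts could still have had 3, which is 0.128 to 0.17 CPM (counts scaled to the library total); this covers counting error only. Rian, the host transcript of the deleted region, had raw counts of 9, 6 and 3 with the deletion and 11, 5 and 38 without it, which cannot check the deletion. Levels below are CPM on library sizes scaled by TMM, and differences are log2 fold changes of cluster KO over wildtype from edgeR's quasi-likelihood test, with p-values adjusted over 15686 tested genes at a threshold of 0.05. In a bulk sample, fewer cells of a type and less RNA per cell cannot be told apart.

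Of the 40 interferon-stimulated genes, 10 were higher and 1 was lower in cluster KO marrow. The risen genes were the transcription factor genes Irf1, Irf7 and Irf9, the antiviral genes Oas1a, Oasl2, Ifit1, Ifi44 and Ifitm1, and Ifi35 and Sp100. Oas2 was the member that fell. The 11 genes called are 27.5% of the members, where 27.9% of all tested genes were called, so that the share of members called stood near the background. By direction, 25% of the members were higher, where 15.9% of all tested genes were, and 2.5% were lower, where 12.1% of all tested genes were. The members were chosen with earlier results of these data known, so these shares are descriptive only. The median log2 fold change was 0.14 over the members and 0.00 over all tested genes, and 23 members lay above 0 and 17 below it. The libraries of the genotypes did not overlap for 16 members, where 46.0% of all tested genes were without overlap. They were higher for 12 members (22.9% of all tested genes) and lower for 4 (23.1%). The changes were small. The 10 risen members ranged from 1.32-fold to 1.78-fold, and 0 of the 40 changed more than 2-fold, where 15.4% of all tested genes did.

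**Figure D1:**
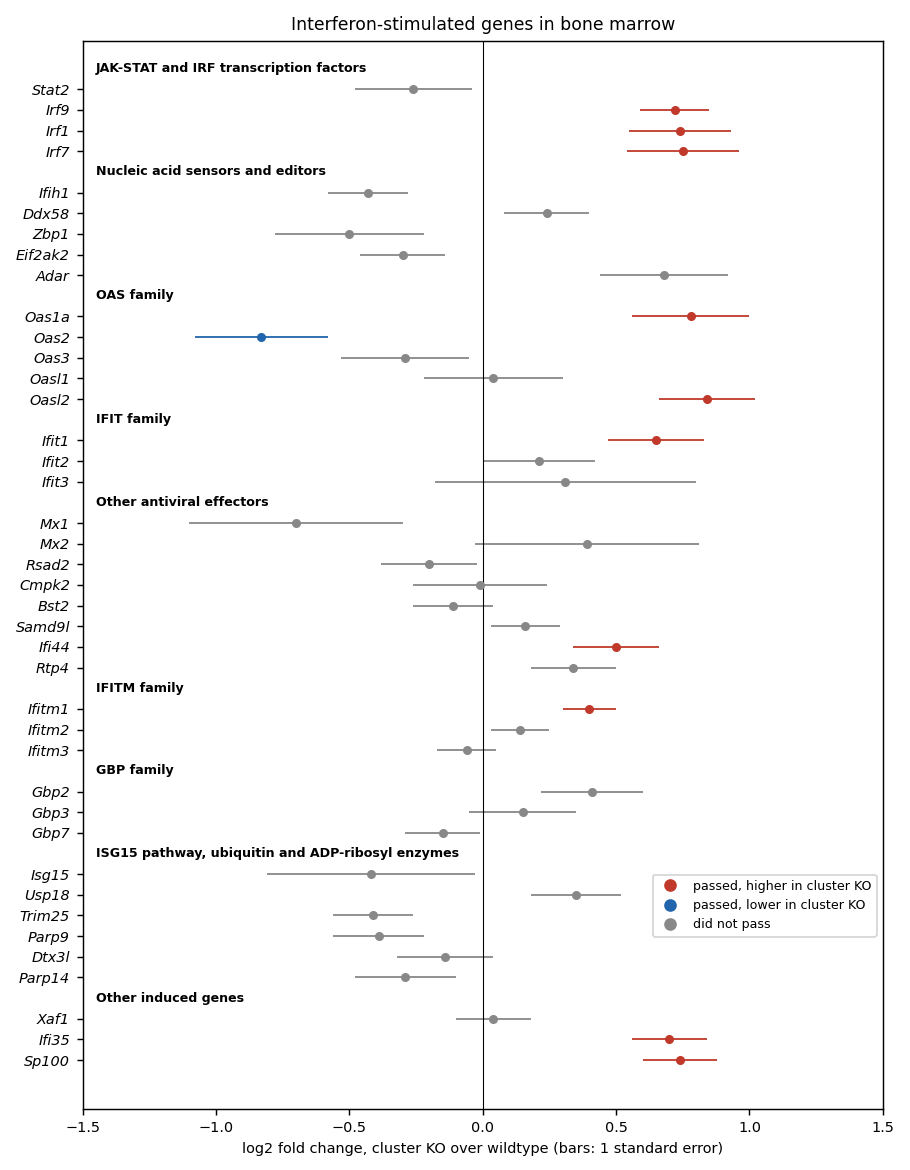
Log2 fold change of cluster KO over wildtype (x axis) for the 40 interferon-stimulated genes, grouped by role, as points with bars of 1 standard error; red genes passed the test as higher, blue as lower, and gray ones did not pass. The 10 risen genes lie between 0.40 and 0.84, Oas2 is at -0.83, and the nucleic acid sensors, the GBP family and the ISG15 pathway hold no gene that passed.

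The calls rested on different numbers of libraries. Irf9, Oasl2, Ifi35 and Sp100 passed in all 13 alternatives, which include leaving out each library in turn. The 7 other called genes each missed the threshold without at least 3 of the single libraries. The members counted as higher were 10 without cluster KO 1, 5 without cluster KO 2, 7 without cluster KO 3, 6 without wildtype 1, 6 without wildtype 2 and 4 without wildtype 3. Those counted as lower were 4 without cluster KO 1, 1 without cluster KO 2, and 0 without each of the other 4 libraries. Over all genes tested, 3151, 1258, 1684, 2010, 1412 and 1303 were higher in the same order, against 2487 with all libraries. Those lower were 2579, 742, 1304, 1341, 944 and 860, against 1895, so that the counts of the whole table moved too. With upper-quartile scaling, which moved the median of all genes by -0.11, the split was 8 higher and 4 lower.

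**Figure D2:**
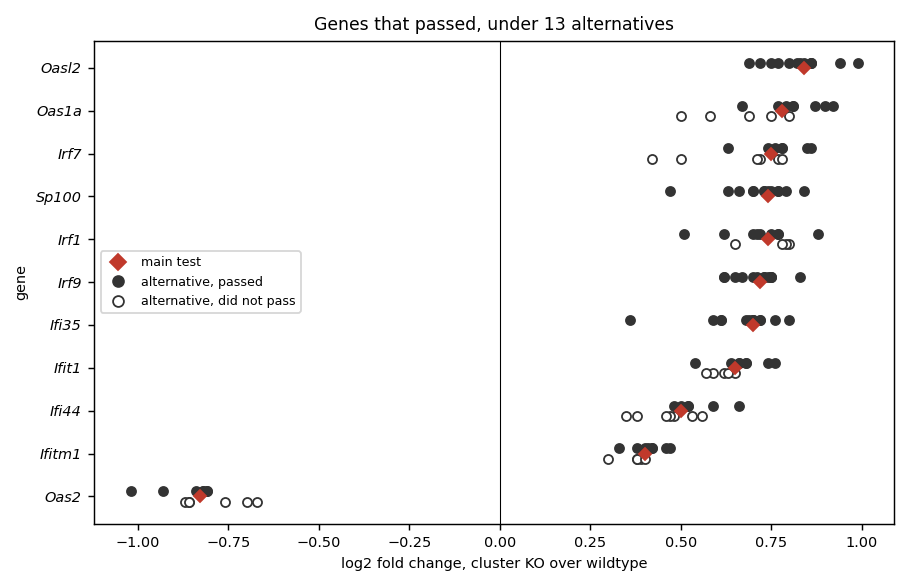
Log2 fold change (x axis) of the 11 genes that passed, under the main test (red diamonds) and 13 alternatives (filled circles passed, open circles did not). Every value keeps its sign, and Irf9, Oasl2, Ifi35 and Sp100 have filled circles only.

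Promoter sequence is shown for members that carry the response elements described above, since these are the sites through which interferon acts. RefSeq promoters (GRCm38.p6, 250 bases before to 50 after the start) were held for 32 members. Both strands were searched for the ISRE core (TTTC, any 2 bases, TTTC; on the other strand GAAA, any 2 bases, GAAA) and for the GAS core TTCNNNGAA, which reads the same on both strands. The ISRE core was in 16 of 32 member promoters (50%), against 3.44% of all 32851 promoters in the table. Taken per gene, as for the members, it was in 3.26% of 10821 tested genes. It was in 2 of 10 risen members and in 14 of 22 members that did not pass. Of all tested genes that rose, 4.41% held it. The GAS core was in 8 of 32 member promoters (25%), against 8.3% of all promoters, and in 3 of the 10 risen members. Per gene it was in 6.84% of tested genes and in 7.99% of those that rose. In 5 member promoters both cores were found, with overlapping matches in 2. The 8 members Zbp1, Oas2, Mx1, Mx2, Rtp4, Usp18, Parp9 and Parp14 had no entry. A match is a description of the letters and not evidence of binding.

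Ifit1 and Oas1a are the risen members with an ISRE core. Only the match nearest the start is printed in capitals, 5′ to 3′ on the gene's strand, with up to 20 bases on each side. In Ifit1, Oas1a, Isg15 and Bst2, further ISRE matches lie wholly or partly in the lower-case flanks, as does the GAS core of Bst2. Of the 14 members with the core that did not pass, 5 lay above 0 and 9 below it, and Gbp2, Ifit3, Isg15, Stat2 and Bst2 are shown.
Ifit1 (chr19:34640784-34640833, plus strand, log2 fold change 0.65): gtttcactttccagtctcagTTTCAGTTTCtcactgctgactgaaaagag
Oas1a (chr5:120907510-120907559, minus strand, 0.78): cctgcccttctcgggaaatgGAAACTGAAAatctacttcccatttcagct
Gbp2 (chr3:142620584-142620633, plus strand, 0.41): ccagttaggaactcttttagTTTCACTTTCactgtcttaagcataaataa
Ifit3 (chr19:34583387-34583436, plus strand, 0.31): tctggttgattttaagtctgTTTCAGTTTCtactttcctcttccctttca
Isg15 (chr4:156200855-156200904, minus strand, -0.42): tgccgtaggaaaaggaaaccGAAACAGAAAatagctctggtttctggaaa
Stat2 (chr10:128270256-128270305, plus strand, -0.26): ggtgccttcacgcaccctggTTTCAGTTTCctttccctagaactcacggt
Bst2 (chr8:71537567-71537616, minus strand, -0.11): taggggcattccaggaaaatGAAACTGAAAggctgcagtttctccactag
Read on 1 strand or the other, the same core, taken from the match nearest the start, was in 6 members, namely Ifit1, Oas1a, Ifit3, Bst2, Gbp7 and Stat2, of which the first 2 rose and the others did not pass. Isg15 held 3 matches in its promoter, more than any other member with an entry.

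Irf1 and Ifi35, both risen, held a GAS core and no ISRE core in this window. That of Irf1 is in capitals, and that of Ifi35 lies past its start.
Irf1 (chr11:53769904-53769952, plus strand, 0.74): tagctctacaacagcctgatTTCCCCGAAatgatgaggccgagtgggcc
The 6 other risen members (Irf7, Irf9, Oasl2, Ifi44, Ifitm1 and Sp100) held neither core in these windows.

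Of the 4 transcription factors of the response 3 were higher. Counts by role, here and below, rest on 3 to 8 genes each. They stand against 15.9% of all tested genes higher and 12.1% lower. Irf9, the DNA-binding part of the complex that type I interferon activates (chromosome 14, 55603571 to 55610030), was at 113, 113 and 126 CPM in KO marrow and 80.7, 63.7 and 68.4 CPM in wildtype marrow. Every cluster KO library lay above every wildtype library (by edgeR, log2 ratio 0.72 with SE 0.13 and adjusted p 0.00474). Irf1, a factor that interferon gamma induces strongly (chromosome 11, 53770014 to 53778374), was at 68.8, 81.8 and 115 CPM against 46.1, 56.8 and 56.0 CPM. Here the groups did not overlap, and cluster KO 3 was the highest (0.74 with SE 0.19, adjusted p 0.018). Irf7, which amplifies interferon alpha production (chromosome 7, 141262706 to 141266481), was at 22.5, 23.6 and 36.0 CPM against 16.6, 15.2 and 17.0 CPM. Cluster KO 3 again stood above the other libraries (0.75 with SE 0.21, adjusted p 0.0244). Stat2, the partner of Irf9 in its complex, was at 26.8, 14.1 and 22.2 CPM against 24.8, 26.2 and 24.7 CPM, and did not pass (-0.26 with SE 0.22, adjusted p 0.412). Its groups overlapped through cluster KO 1. The log2 ratio of Irf9 to Stat2 CPM was 2.07, 2.99 and 2.51 in KO marrow and 1.70, 1.28 and 1.47 in wildtype marrow, without overlap. The share of all gene pairs without such overlap was not computed, for this ratio or for those below.

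Irf1 missed the threshold without cluster KO 2 (adjusted p = 0.051, edgeR), wildtype 1 (0.0669), wildtype 2 (0.0536) or wildtype 3 (0.0564). Irf7 missed it without cluster KO 3 (log2 fold change 0.50, adjusted p = 0.0729), wildtype 1 (0.0624), wildtype 2 (0.0889) or wildtype 3 (0.07), and at 0.42 (adjusted p = 0.133) after removal of length and GC trends.

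The nucleic acid sensors and editors held no gene that passed, with 2 of 5 above 0 and a median of -0.30. Ifih1, which encodes the double-stranded RNA sensor MDA5, was at 34.1, 27.0 and 29.4 CPM against 37.3, 42.6 and 42.3 CPM. Its groups did not overlap, and its value lay just outside the threshold (by edgeR, log2 ratio -0.43 with SE 0.15 and adjusted p 0.0565). Adar, the gene of the enzyme that edits adenosine to inosine in double-stranded RNA, was at 19.1, 18.2 and 11.7 CPM against 11.4, 8.44 and 10.7 CPM (0.68 with SE 0.24, adjusted p 0.0559). Its groups did not overlap either, and cluster KO 3 lay close to the wildtype range. The exons of Adar share 16.8% of their bases with Chrnb2 on the other strand, and reads of such a pair cannot be told apart in these libraries. Each passed in 4 of 13 alternatives. Adar did so without cluster KO 3 (0.87, adjusted p = 0.0216), by DESeq2 (0.0214), with no filter (0.048) and with trends of length and GC removed (0.0357). Ifih1 did so without cluster KO 1 (-0.54, adjusted p = 0.0201), with upper-quartile scaling (0.0329), by DESeq2 (0.0323) and with a mean CPM of at least 1 (0.0444). The cytosolic RNA sensor gene Ddx58 (RIG-I, 0.24), the Z-nucleic acid sensor gene Zbp1 (-0.50) and the translation-blocking kinase gene Eif2ak2 (PKR, -0.30) had groups that overlapped.

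The OAS family went both ways. The family is named for enzymes that answer double-stranded RNA with an oligoadenylate messenger that activates RNase L, and its members need not all act this way. Oas1a (chromosome 5, 120896256 to 120907521) was at 29.5, 37.8 and 40.2 CPM against 23.3, 24.7 and 14.5 CPM, all cluster KO libraries above all wildtype libraries (by edgeR, log2 ratio 0.78 with SE 0.22 and adjusted p 0.0258). Oas2, a neighbour in the same gene cluster (chromosome 5, 120730333 to 120749853), was at 5.85, 7.49 and 4.60 CPM against 11.6, 10.1 and 10.2 CPM. All cluster KO libraries of Oas2 lay below all wildtype libraries (-0.83 with SE 0.25, adjusted p 0.0318). The log2 ratio of Oas1a to Oas2 CPM was accordingly 2.33, 2.34 and 3.13 in KO marrow and 1, 1.29 and 0.51 in wildtype marrow, which restates these calls. Oasl2 (chromosome 5, 114896936 to 114912234) had the largest rise of the 40, at 49.3, 57.4 and 70.7 CPM against 39.9, 29.2 and 30.3 CPM (0.84 with SE 0.18, adjusted p 0.00924). Oas3 (-0.29, SE 0.24) and Oasl1 (0.04, SE 0.26) had overlapping groups.

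Oas1a missed the threshold without cluster KO 2 (adjusted p = 0.0899, edgeR), cluster KO 3 (0.0727) or wildtype 3 (0.0803), and with length and GC trends removed (log2 fold change 0.50, adjusted p = 0.0835). Oas2 missed it without cluster KO 3 (0.089), wildtype 1 (0.0952), wildtype 2 (0.0776) or wildtype 3 (0.0761), and with those trends removed (-0.70, adjusted p = 0.0583). Oas1a has close copies in the same cluster, so its counts are uncertain. Its copy Oas1g, looked up after the values were seen, was at 5.44, 5.13 and 5.67 CPM against 2.31, 2.72 and 2.25 CPM (1.16 with SE 0.28, adjusted p 0.0148), and missed the threshold without cluster KO 2 (0.0508) or wildtype 3 (0.0554).

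The IFIT family encodes proteins that bind foreign RNA and block its translation. Of its 3 members 1 rose (33.3%, against 15.9% of all tested genes). Ifit1 (chromosome 19, 34640871 to 34650009) was at 20, 25.3 and 24.1 CPM against 14.3, 16.9 and 13 CPM, without overlap (by edgeR, log2 ratio 0.65 with SE 0.18 and adjusted p 0.0261). Ifit2 was at 15.3, 11.1 and 13.3 CPM against 13.3, 10.8 and 10 CPM (0.21 with SE 0.21, adjusted p 0.488). Ifit3 had the lowest counted level of the 3, at 4.52, 3.11 and 1.81 CPM against 4.30, 1.47 and 1.79 CPM (0.31 with SE 0.49, adjusted p 0.665). Multiply aligned reads are not in these counts, so the levels need not rank expression. The groups of Ifit2 and Ifit3 overlapped, and replicate 1 was the highest library for Ifit3 in both genotypes. The log2 ratio of Ifit1 to Ifit3 CPM was 2.14, 3.02 and 3.73 in KO marrow and 1.74, 3.52 and 2.85 in wildtype marrow, with overlap. Ifit1 missed the threshold without cluster KO 2 (adjusted p = 0.111), cluster KO 3 (0.0626), wildtype 1 (0.0757) or wildtype 3 (0.0967).

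Of 8 other antiviral effectors 1 rose (12.5%, near the 15.9% of all tested genes). Ifi44, a gene of microtubule-associated aggregates (chromosome 3, 151730922 to 151749960), was at 46.8, 52.5 and 65.3 CPM against 37.5, 42.2 and 37.1 CPM. Here the groups did not overlap (by edgeR, log2 ratio 0.50 with SE 0.16 and adjusted p 0.0412). Among the runs that left out 1 library, the call held only without cluster KO 1. Adjusted p rose to 0.0992 without cluster KO 2, 0.116 without cluster KO 3, 0.114 without wildtype 1, 0.0812 without wildtype 2 and 0.128 without wildtype 3. Ifi44 passed in 6 of all 13 alternatives, and also missed with upper-quartile scaling (0.0724) and the replicate block (0.105). The 7 others had overlapping groups. They were Rtp4, a chaperone of receptor traffic (0.34), Samd9l, a growth-restraining factor of blood cells (0.16), Cmpk2, a mitochondrial nucleotide kinase gene (-0.01), and Bst2, which tethers budding viruses to the cell (-0.11). Rsad2, the gene of viperin, which makes a chain-terminating nucleotide, was at -0.20. Mx1 and Mx2, genes of dynamin-like GTPases, were at -0.70 and 0.39 with standard errors of 0.40 and 0.42. The levels of both were low, from 1.49 to 5.04 CPM for Mx1 and from 1.98 to 4.61 CPM for Mx2, and the annotation lists Mx2 as a polymorphic pseudogene.

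The IFITM family, membrane proteins that hinder virus entry, held the 3 highest levels of the 40 genes per length of transcript. The wildtype means were 1050 CPM per kb for Ifitm3, 807 for Ifitm1 and 761 for Ifitm2, against 87.6 for Xaf1, the next gene. Ifitm1 (chromosome 7, 140967221 to 140969825) was at 844, 805 and 694 CPM against 604, 581 and 596 CPM. Its groups did not overlap (by edgeR, log2 ratio 0.40 with SE 0.10 and adjusted p 0.0175), and it had the smallest standard error of the 40. Ifitm2 was at 564, 543 and 535 CPM against 530, 540 and 425 CPM (0.14 with SE 0.11, adjusted p 0.393). Ifitm3 was at 760, 713 and 591 CPM against 697, 729 and 720 CPM (-0.06 with SE 0.11, adjusted p 0.734). Cluster KO 3 was the lowest cluster KO library for all 3 genes, and the groups of Ifitm2 and Ifitm3 overlapped. The log2 ratio of Ifitm1 to Ifitm3 CPM was 0.15, 0.18 and 0.23 against -0.21, -0.33 and -0.27, without overlap. Ifitm1 missed the threshold without cluster KO 2 (adjusted p = 0.0839), wildtype 2 (0.0858) or wildtype 3 (0.0568), and with upper-quartile scaling (0.30, adjusted p = 0.101). The family members are similar in sequence, which makes their counts uncertain.

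The guanylate-binding proteins, GTPases that attack vacuoles of microbes, did not pass. Gbp2 was at 37.1, 39.0 and 49.9 CPM against 26.9, 39.7 and 28.5 CPM (by edgeR, log2 ratio 0.41 with SE 0.19 and adjusted p 0.138). Gbp3 was at 22.2, 20.3 and 31.4 CPM against 23.3, 20.2 and 23.3 CPM (0.15 with SE 0.20, adjusted p 0.608). Gbp7 was at 82.6, 68.2 and 63.5 CPM against 75.4, 81.4 and 81.6 CPM (-0.15 with SE 0.14, adjusted p 0.425). The groups of all 3 overlapped.

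None of the 6 genes of the ISG15 pathway and of the linked ubiquitin and ADP-ribosyl enzymes passed, and 5 of the 6 lay below 0. Isg15, a ubiquitin-like modifier and a classic readout of interferon, had a low counted level in all libraries. It was at 1.60, 2.15 and 2.28 CPM against 2.85, 3.45 and 1.74 CPM, with overlapping groups (by edgeR, log2 ratio -0.42 with SE 0.39 and adjusted p 0.458). As multiply aligned reads were not counted, a low count need not mean low expression. Usp18, the protease that removes Isg15 and restrains the receptor, stood at 29.5, 30.5 and 37.2 CPM in KO marrow against 26.8, 27.2 and 22 CPM in wildtype marrow. The groups of Usp18 did not overlap, yet the test did not call it (0.35 with SE 0.17, adjusted p 0.137). Trim25, a ubiquitin ligase gene that acts with RIG-I, was at 69.1, 58.9 and 49.9 CPM against 76.9, 73.3 and 86.2 CPM (-0.41 with SE 0.15, adjusted p 0.0658). Parp9 (-0.39, SE 0.17) also did not overlap between the genotypes, whereas its ligase partner Dtx3l (-0.14) and Parp14 (-0.29) did. Parp9 and Dtx3l lie head to head and share 458 exon bases on opposite strands. Trim25 (-0.54, adjusted p = 0.0152) and Parp14 (-0.55, adjusted p = 0.0172) passed as lower without cluster KO 1. Trim25 also passed with upper-quartile scaling (0.041) and by DESeq2 (0.0473), and Parp9 with upper-quartile scaling (0.0365).

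The enzymes that attach Isg15 were on the list of further interferon-stimulated genes and were picked out after the values were seen. Ube2l6, the conjugating enzyme, was at 172, 175 and 215 CPM against 116, 103 and 67.6 CPM (by edgeR, log2 ratio 0.97 with SE 0.19 and adjusted p 0.00619). Uba7, the activating enzyme, was at 85.6, 107 and 125 CPM against 66.1, 68.4 and 73.3 CPM (0.61 with SE 0.15, adjusted p 0.0152). The main mouse ligase gene Herc6 did not pass (0.12 with SE 0.16, adjusted p 0.616). Ube2l6 passed in all 13 alternatives, and Uba7 missed the threshold without cluster KO 2 (0.0632), wildtype 1 (0.0548) or wildtype 2 (0.0646).

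Among the remaining members, Ifi35 and Sp100 rose and Xaf1 did not. Ifi35, a leucine zipper protein gene (chromosome 11, 101448407 to 101458698), was at 86.0, 95.9 and 107 CPM against 67.5, 58.7 and 52.2 CPM (by edgeR, log2 ratio 0.70 with SE 0.14 and adjusted p 0.00758). Sp100, a nuclear body protein gene (chromosome 1, 85649988 to 85709998), was at 101, 128 and 134 CPM against 77.4, 72.1 and 68.1 CPM (0.74 with SE 0.14, adjusted p 0.00515). Both had clear gaps between the genotypes, and cluster KO 1 was the lowest cluster KO library for each. Xaf1, a gene linked to apoptosis, was at 63.1, 67.0 and 51.8 CPM against 63.2, 54.7 and 58.7 CPM (0.04 with SE 0.14, adjusted p 0.853), with overlapping groups. Ifi35 was at 0.36 after removal of length and GC trends, and Sp100 at 0.47, and both still passed. Ifi35 shares 16.8% of its exon bases with an antisense gene, and Sp100 has partial copies on the same chromosome, so the counts of both are uncertain.

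**Figure D3:**
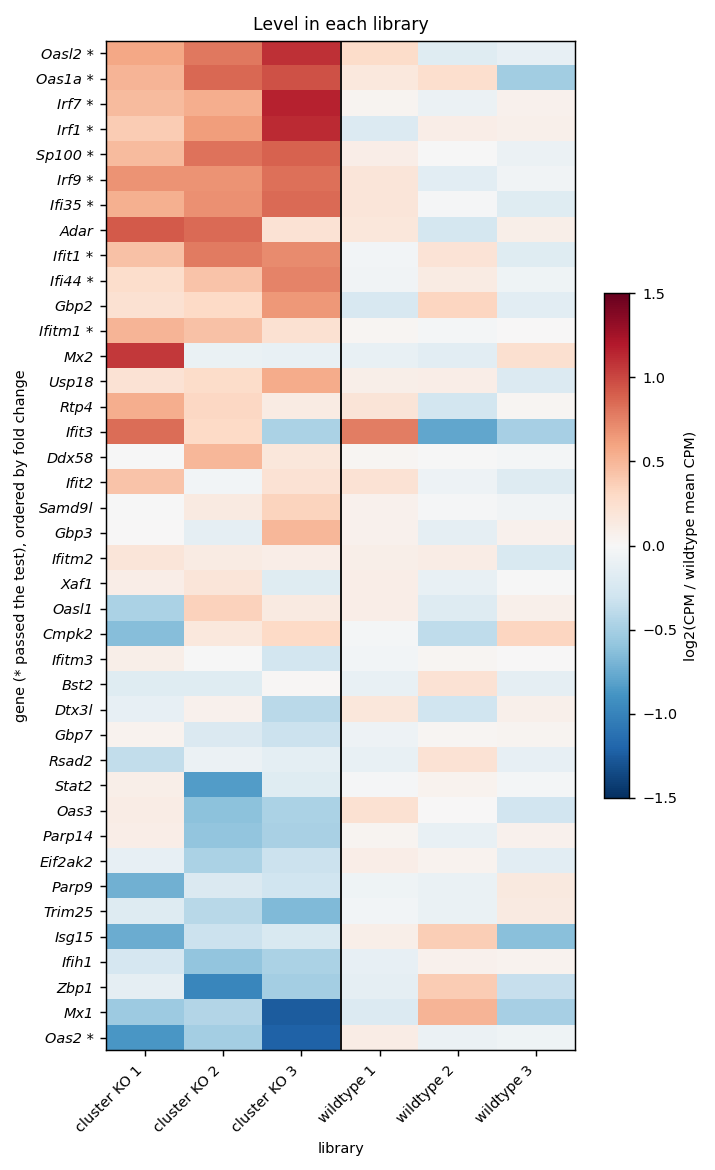
Level of the 40 genes (y axis, ordered by fold change, stars for genes that passed) in each of the 6 libraries (x axis), as log2 of CPM over the wildtype mean. The genes at the top are red in all 3 cluster KO libraries and deepest in cluster KO 3 for 8 of the 10 risen genes, while Stat2, Zbp1 and Ifit3 vary as much within a genotype as between them.

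The cluster KO libraries were not alike. Of the 10 risen members, 9 were lowest in cluster KO 1 and 8 were highest in cluster KO 3. The median level of those 10 over the wildtype mean was 0.50 in cluster KO 1, 0.69 in cluster KO 2 and 0.87 in cluster KO 3 on the log2 scale, and 0.06, -0.01 and -0.08 in wildtype marrow. The order was shared by the whole table: of all 2487 genes higher in cluster KO, 79% were lowest in cluster KO 1 and 75.6% highest in cluster KO 3. The share of reads outside genes was 10.05, 8.59 and 7.29% in the same cluster KO libraries and 10.03, 10.50 and 11.06% in wildtype marrow, and its part in these values was not tested. Over all 40 members the level was 0.10, 0.13 and 0.12 in KO marrow and 0.06, -0.01 and -0.05 in wildtype marrow. The members took 0.37, 0.36 and 0.333% of all gene counts in KO marrow and 0.313, 0.312 and 0.299% in wildtype marrow. Without the IFITM family those shares were 0.149, 0.152 and 0.155%, and 0.132, 0.127 and 0.126%.

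The fold changes ran with transcript length. Of the 20 members with a median transcript of up to 2330 bases, 7 were higher and 0 lower, with a median log2 fold change of 0.26. Of the 20 longer members, 3 were higher and 1 was lower, with a median of -0.15. All tested genes split at the same length had medians of 0.13 and -0.13, with 21.4% and 8.33% higher and 11% and 13.6% lower, so that the members moved with length in the direction of the whole table. Across the 40 members, which share their libraries, Spearman's rho of length and log2 fold change was -0.38, and it was -0.18 over the 13938 tested genes in the same range of length. Ifitm1 and Irf1, at 736 and 833 bases, are short members that rose, and Ifitm2 and Xaf1, at 655 and 672 bases, are the shortest and did not pass. Parp14 and Trim25 are the longest, at 7417 and 5566 bases. With length and GC trends removed, 9 members were higher and 0 lower.

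**Figure D4:**
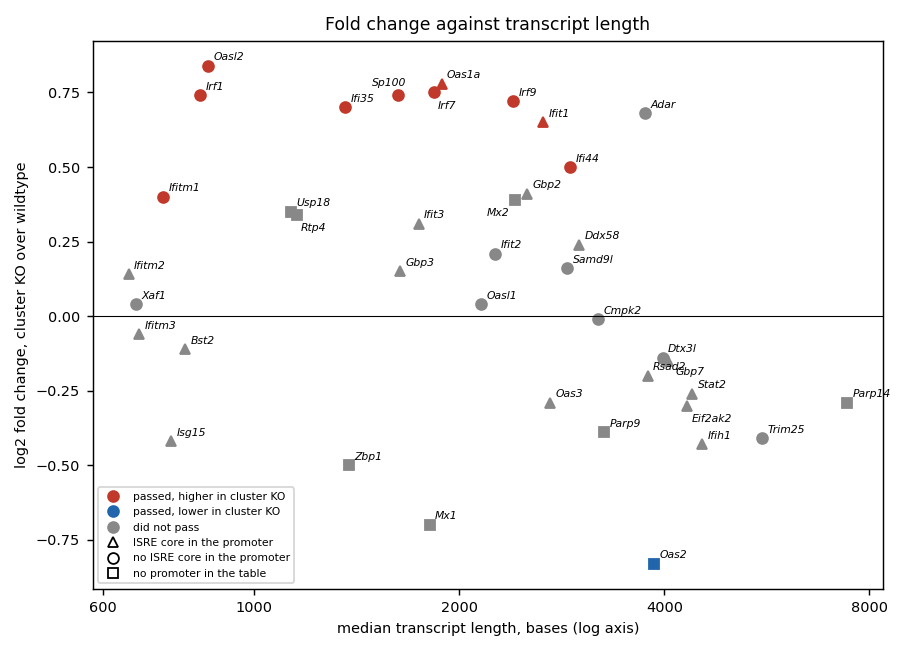
Log2 fold change of cluster KO over wildtype (y axis) against median transcript length in bases (x axis, log scale) for the 40 genes; color marks the test result, triangles an ISRE core in the promoter, circles none and squares no promoter entry. The 10 risen genes all lie at or below 2910 bases, and 2 of them are triangles.

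The genes around the response were described with lists of the same pathway. Of 21 interferon genes, 16 had 0 counts in all 6 libraries and 0 reached the filter. All 21 together had 8, 9 and 7 raw counts in KO marrow and 7, 15 and 2 in wildtype marrow, so that a difference in interferon transcripts was not detectable at this depth. Ifnb1 had 8, 0 and 0 counts against 0, 0 and 0, and Ifng 0, 8 and 5 against 0, 14 and 0.

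The receptor chains for interferon gamma rose and those for type I interferon did not pass. Ifngr1 was at 231, 294 and 368 CPM against 178, 170 and 158 CPM (by edgeR, log2 ratio 0.82 with SE 0.16 and adjusted p 0.00581). Ifngr2 was at 26.5, 28.4 and 27.0 CPM against 16.6, 15.7 and 14.2 CPM (0.81 with SE 0.16, adjusted p 0.00625). Both rose without overlap and passed in all 13 alternatives. Ifnar1 (-0.01 with SE 0.18, adjusted p 0.958) and Ifnar2 (0.01 with SE 0.12, adjusted p 0.941) had overlapping groups; the difference between the receptor types was not tested. Of the 21 receptor and JAK-STAT genes listed, 6 were higher (28.6%, against 15.9% of all tested genes) and 1 lower (4.76%, against 12.1%). Their median was 0.01. The share called was 33.3%, near the 27.9% of all tested genes. These genes too were listed with earlier results of these data known, and the shares were not tested. The phosphatase gene Ptpn6, a brake on cytokine receptors, rose (1.10, SE 0.20), and Ptpn11, the gene of its relative SHP-2, fell (-1.02, SE 0.20). The feedback inhibitor Socs1, named after its values were seen, was at 9.59, 10.4 and 12.5 CPM against 4.98, 2.15 and 4.97 CPM (1.42 with SE 0.33, adjusted p 0.0117).

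Genes that act upstream of interferon include sensors, adaptors and kinases. Of 25 tested genes of nucleic acid sensing, 9 were higher (36%, against 15.9% of all tested genes) and 2 lower (8%, against 12.1%), with a median of 0.48. The share called was 44%, against 27.9% of all tested genes, a difference that was not tested. This list was chosen with earlier results of these data known, so its shares are descriptive only. The 4 with the smallest p all rose. Tmem173, which encodes the adaptor STING, was at 62.6, 80.0 and 82.2 CPM against 29.0, 32.1 and 28.3 CPM (by edgeR, log2 ratio 1.33 with SE 0.15 and adjusted p 0.00119). Myd88, the adaptor of Toll-like receptors, was at 47.8, 64.3 and 87.5 CPM against 27.3, 25.6 and 22.2 CPM (1.41 with SE 0.21, adjusted p 0.00281). Unc93b1, which carries Toll-like receptors to endosomes, was at 33.0, 50.6 and 66.5 CPM against 20.9, 16.6 and 12.3 CPM (1.59 with SE 0.27, adjusted p 0.00384). In these 3 genes every cluster KO library exceeded every wildtype library. Ddx41, a helicase gene, rose by a log2 fold change of 1.09 (SE 0.19), and the kinase gene Irak1 (-0.66, SE 0.12) and the RIG-I adaptor gene Mavs (-0.69, SE 0.15) fell. Mavs missed the threshold without cluster KO 2 (adjusted p = 0.0542) or wildtype 2 (0.0503). The counts of this list were 5 higher and 1 lower without cluster KO 2, and the same without wildtype 2. Over all genes tested they were 1258 and 742, and 1412 and 944, against 2487 and 1895 with all libraries.

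A list of 92 further interferon-stimulated genes, of which 87 were tested, had a higher median than the 40, a difference that was not tested. Of the 87, 28 were higher (32.2%, against 15.9% of all tested genes) and 5 lower (5.75%, against 12.1%), with a median of 0.39. The share called was 37.9%, against 27.9% of all tested genes. As the list was chosen with earlier results of these data known, its shares are descriptive only. The counts were 13 and 2 without cluster KO 2, 15 and 3 without wildtype 2, and 15 and 4 without wildtype 3. Over all genes tested they were 1258 and 742, 1412 and 944, and 1303 and 860, against 2487 and 1895 with all libraries. Ly6e, a surface protein gene of progenitors, was at 2040, 2330 and 2330 CPM against 1440, 1300 and 1090 CPM (by edgeR, log2 ratio 0.80 with SE 0.11 and adjusted p 0.00251). Slfn2, a gene of immune cell quiescence, was at 26.9, 29.9 and 31.6 CPM against 9.05, 6.68 and 10.4 CPM (1.76 with SE 0.20, adjusted p 0.00126). Ms4a6b (1.16, SE 0.15) and Tgtp2 (2.01, SE 0.32) also rose. All 4 were separated by genotype in every library.

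The genes of that list that fell were Tap1 (-0.75, SE 0.13), which moves peptides to MHC class I, Nlrc5 (-0.72, SE 0.15), the activator of MHC class I genes, Zc3hav1 (-0.56, SE 0.12), a binder of viral RNA, Pml (-0.41, SE 0.13), of nuclear bodies, and Parp10 (-0.69, SE 0.22), given as log2 fold changes. Tap1 and Nlrc5 passed in all 13 alternatives. Zc3hav1 missed the threshold without cluster KO 2 (adjusted p = 0.0517, edgeR). Pml missed it without cluster KO 2 (0.103), cluster KO 3 (0.0776), wildtype 1 (0.117), wildtype 2 (0.0755) or wildtype 3 (0.111), and Parp10 without cluster KO 2 (0.156), cluster KO 3 (0.117), wildtype 1 (0.0933), wildtype 2 (0.0923) or wildtype 3 (0.137). The nuclear body genes Sp100 and Pml had log2 ratios of Sp100 to Pml CPM of 0.63, 0.95 and 1.23 in KO marrow and -0.18, -0.09 and -0.33 in wildtype marrow. As Sp100 was called higher and Pml lower, this ratio restates the 2 calls and is not a further result.

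Immunity-related GTPases, which interferon gamma induces in mice and which act on vacuoles of parasites, were picked from the list after the values were seen. Tgtp1 (log2 fold change 1.78), Tgtp2 (2.01) and Ifi47 (0.74) rose and passed in all 13 alternatives, though Tgtp1 and Tgtp2 are near-identical copies with uncertain counts. Igtp (0.85, SE 0.20), Irgm1 (0.64, SE 0.16) and Iigp1 (0.57, SE 0.18) rose too. Igtp missed the threshold without cluster KO 2 (adjusted p = 0.052, edgeR), wildtype 2 (0.0536) or wildtype 3 (0.0574), and Irgm1 without cluster KO 2 (0.07), wildtype 2 (0.074) or wildtype 3 (0.0574). Iigp1 missed it without any 1 library other than cluster KO 1 (0.055 to 0.125). Irgm2 did not pass (-0.02 with SE 0.21, adjusted p 0.961).

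**Figure D5:**
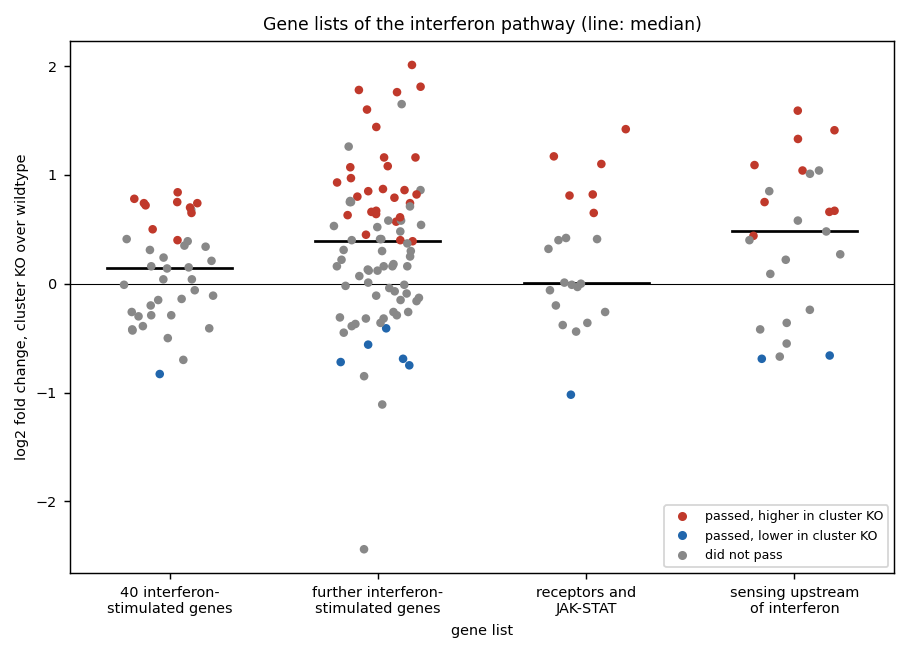
Log2 fold change of cluster KO over wildtype (y axis) for the tested genes of 4 lists (x axis), 1 point per gene, with a line at the median; red genes passed as higher, blue as lower, gray did not pass. The medians are 0.14 for the 40 genes, 0.39 for further interferon-stimulated genes, 0.01 for receptors and JAK-STAT and 0.48 for sensing upstream of interferon.

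Markers of marrow cell types moved with genotype in the same libraries, and their part in the values above was not tested. None of these markers had 0 counts in all 6 libraries. The counts of markers called below stand against 15.9% of all tested genes higher and 12.1% lower, and those of the plasmacytoid dendritic cell, neutrophil, monocyte, T and NK, and stroma lists rest on 1 to 3 genes each. Of the B lineage markers 7 of 10 were higher, with a summed level of 1970 to 2090 CPM in KO marrow and 620 to 662 CPM in wildtype marrow. Of the stem and progenitor markers 7 of 14 were higher and 1 was lower, at 2060 to 2080 CPM against 1530 to 1570 CPM. Both summed levels were separated by genotype without overlap. Plasmacytoid dendritic cells are the strongest interferon producers. Of their markers, which include the member Bst2, 2 of 9 tested were higher, at 298 to 337 CPM against 209 to 267 CPM. Of these 9, 7 lay above 0 and 2 below it, with a median log2 fold change of 0.72. Their defining gene Siglech, 1 marker of that list, ranged from 1.53 to 7.53 CPM over the libraries of both genotypes. Neutrophil markers were at 10600 to 20300 CPM against 6340 to 12100 CPM, with 3 of 12 higher and cluster KO 1 the highest library. Monocyte and macrophage markers were at 160 to 275 CPM against 133 to 142 CPM (1 of 9 higher), and T and NK markers at 286 to 407 CPM against 314 to 423 CPM (1 of 9 lower). Erythroid markers were at 772 to 1090 CPM against 1050 to 1430 CPM (5 of 10 lower), megakaryocyte markers at 295 to 300 CPM against 434 to 538 CPM (1 of 8 higher, 3 lower), and stroma and endothelium markers at 46.4 to 156 CPM against 22.8 to 77.1 CPM (1 of 6 higher).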

How the data were processed

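Poly(A) libraries of bone marrow extracts were built with Clontech and Nextera XT reagents, without strand information, and the 6 were pooled for sequencing, per the labels' protocols. The authors deposited raw read counts per Ensembl gene; TopHat2, HTSeq and mm10 are named in the submitters' processing notes, without versions. No source at hand states the annotation release or the counting mode. The 5 HTSeq summary rows, 13.4 to 16.8% of reads as multiply aligned, 7.29 to 11.1% as outside genes and 2.71 to 2.95% as ambiguous, were left out.

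Names and lengths came from GENCODE M21, which matched 47310 of 47729 genes. edgeR 4.0.16 in R 4.3.3 fitted genotype alone (TMM, filterByExpr with a minimum count of 10, robust quasi-likelihood fit, Benjamini-Hochberg); DESeq2 1.42.0 was an alternative, with other scalings and filters, the replicate block, length and GC trends, and each library left out. The standard error was the coefficient over the square root of F. Levels of a gene set per library are medians over its genes of log2 CPM, with a prior count of 2, less each gene's wildtype mean. The test was checked on simulated data. No pair of libraries within a genotype agreed within sampling noise (chi-square per degree of freedom 12.2 to 71.4).

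Members and lists were chosen with earlier results of these data known. The rule named all members, with values for every called member. It also named up to 4 called genes with the smallest p per pathway list, and the receptor genes Ifnar1, Ifnar2, Ifngr1 and Ifngr2. Outside the rule, the genes called lower in the pathway lists were named. So were genes picked after the values were seen, among them Socs1, Oas1g, the enzymes that attach Isg15 and the immunity-related GTPases. Other called genes of these lists go unnamed. One gene that the rule names is not reported here. The symbol Mb21d1 was not matched and is not analysed here.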

Additional observations from a re-analysis of the deposited data

How the results depend on the processing

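Over 13 alternatives the 40 members gave 520 log2 fold changes. Of these, 445 kept their direction and side of the threshold, 38 (in 7 genes) lost the call, 13 (in 5 genes) gained it and 24 (in 11 genes, none of them called) changed sign. With upper-quartile scaling the members' median went from 0.14 to 0.03, with 4 lower, that of the further genes to 0.28 and that of the receptor list to -0.09. Members lower were 3 by DESeq2, 2 with a mean CPM of at least 1 and 0 with length and GC trends removed. The receptor list's median was 0.15 with a mean CPM of at least 1 and 0.14 with trends removed, where that of the further genes was 0.30. Same-numbered libraries of the genotypes did not deviate together (correlations -0.16, 0.005 and -0.141), and no library correlated best with its own number. With the replicate block 5 members were higher and 0 lower, and 17 and 3 of the further genes. Over all tested genes that block gave 1331 higher and 865 lower. With single libraries left out, members higher ran from 4 to 10, members lower from 0 to 4 and their median from 0.06 to 0.18. Further genes higher ran from 13 to 32, lower from 2 to 7, and their median from 0.30 to 0.43. Receptor genes lower ran from 1 to 3 and their median from 0.00 to 0.10. Sensing genes higher ran from 5 to 11 and lower from 1 to 2. Over all genes upper-quartile scaling gave 2100 higher and 2411 lower, against 2487 and 1895. The cause of these shifts was not tested.

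With trends removed the log2 fold changes that changed sign were Oasl1 (-0.19), Cmpk2 (0.06), Ifitm3 (0.04), Gbp3 (-0.12), Gbp7 (0.04), Dtx3l (0.05) and Parp14 (0.05). With upper-quartile scaling they were Oasl1 (-0.07) and Xaf1 (-0.06). Cmpk2 was at 0.00 with DESeq2 size factors and at 0.02 by DESeq2 and with no filter. Without single libraries Oasl1 ran from -0.14 to 0.23, Ifit3 from -0.05 to 0.94, Mx2 from -0.11 to 0.59 and Cmpk2 from -0.19 to 0.22. Bst2 ran from -0.18 to 0.01, Ifitm3 from -0.14 to 0.04, Gbp3 from -0.06 to 0.27 and Xaf1 from -0.03 to 0.14. Isg15, Ifit3, Mx1 and Mx2, all with a wildtype mean under 5 CPM, had standard errors of 0.39 to 0.49.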
